A study of Homo sapiens with 4 samples.

Results

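The transcripts of 10 genes that encode readers of N6-methyladenosine (m6A), or close partners of readers, were compared in osteosarcoma cells with and without knockdown of the m6A demethylase FTO. The members were taken by gene name from a deposited table of 11972 protein-coding genes, and all 10 were found there: the cytoplasmic readers YTHDF1, YTHDF2 and YTHDF3, the nuclear reader YTHDC1 and the helicase YTHDC2, the 3 insulin-like growth factor 2 mRNA-binding proteins IGF2BP1, IGF2BP2 and IGF2BP3, and the RNA-binding proteins ELAVL1 (HuR) and FMR1 (FMRP). The cells were 143B, a human osteosarcoma line. The labels describe stable cells that had received either a plasmid with a short hairpin RNA against FTO (shFTO, 2 libraries) or a control plasmid (shCtrl, 2 libraries), all grown in serum-containing medium with puromycin. The labels name neither the number of hairpins nor whether the stable cells were a clone or a pool, and they do not state whether libraries of one group were grown separately, so spreads and p-values describe these 4 libraries and may be technical.

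m6A is placed on messenger RNA by a methyltransferase complex, removed by demethylases such as FTO, and recognised by readers that decide what happens to the marked transcript. The YTH domain binds the methylated adenosine itself in an aromatic pocket. YTHDF2 is best known for bringing marked transcripts to the CCR4-NOT deadenylase and to decay, YTHDC1 acts on splicing and nuclear export, and the IGF2BP proteins, which bind RNA through KH domains, are known for keeping transcripts such as MYC stable and translated. ELAVL1 binds AU-rich elements and was described as a partner of the IGF2BP proteins. FMRP is a repressor of translation that has been reported to prefer m6A-bearing targets.

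Expression is given in FPKM, a fragment count divided by transcript length and by the library's mapped fragments, and read depth was unknown. Where 2 values are given for a group they are those of replicate 1 and then replicate 2. Summed FPKM ran from 200555 to 212531 per library, of which the 10 readers took 0.101% to 0.112%. FTO, the targeted gene, was listed at 0.268 and 0.242 FPKM after knockdown and at 1.14 and 0.665 FPKM in control cells. The mesenchymal marker VIM had between 253 and 329 FPKM, the osteoblast regulator RUNX2 between 0.43 and 0.58 FPKM, and the bone collagen gene COL1A1 between 0.64 and 2.07 FPKM. Of the mesenchymal set of 8 to which they belong, 6 were listed, CD44, SPARC and NT5E being the others. Those 6 summed to 363 to 444 FPKM in shFTO and 379 to 397 FPKM in shCtrl. COL1A2 and THY1 of that set were not among the listed genes, nor were PTPRC, PECAM1 and CDH1. Every listed gene had at least 0.5 FPKM as the larger of its group means, so an unlisted gene may have been below that level rather than absent. The 3 listed markers of an epithelial set of 5 (EPCAM, KRT8 and KRT18) summed to 124 to 150 FPKM in shFTO and 175 to 192 FPKM in shCtrl, and their part in the reader values was not tested. The only listed blood-cell marker of 4, CD68, had 13.4 to 25.8 FPKM in shFTO and 11.9 to 13.4 FPKM in shCtrl.

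The readers of one family resemble each other, and this bears on whether fragments could be assigned to the wrong gene. The best-matching ungapped stretch of 90 coding bases is therefore shown for the paralogs, from GENCODE release 29, counted from the A of the start codon and written in the sense of the transcript, with capitals at each base that differs from the first sequence. YTHDF1 (chromosome 20, minus strand, coding bases 1132 to 1221) and YTHDF2 (chromosome 1, plus strand, coding bases 1195 to 1284) shared 77 of these 90 bases.
YTHDF1: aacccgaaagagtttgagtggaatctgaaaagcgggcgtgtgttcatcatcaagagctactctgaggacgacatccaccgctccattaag
YTHDF2: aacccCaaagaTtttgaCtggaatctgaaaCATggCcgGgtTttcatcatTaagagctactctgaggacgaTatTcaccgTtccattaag

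For the IGF2BP genes the best stretch held 65 of 90 bases common to all 3. It spans coding bases 589 to 678 of IGF2BP1 (chromosome 17, plus strand), 601 to 690 of IGF2BP2 (chromosome 3, minus strand) and 589 to 678 of IGF2BP3 (chromosome 7, minus strand).
IGF2BP1: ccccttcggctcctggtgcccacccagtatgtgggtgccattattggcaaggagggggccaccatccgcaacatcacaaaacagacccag
IGF2BP2: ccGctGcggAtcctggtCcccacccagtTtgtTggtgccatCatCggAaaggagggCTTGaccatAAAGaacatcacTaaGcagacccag
IGF2BP3: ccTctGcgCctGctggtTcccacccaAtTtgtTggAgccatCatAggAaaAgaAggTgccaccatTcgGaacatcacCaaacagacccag

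Even in these stretches the differences are scattered. The longest run of coding bases without a difference was 20 between YTHDF1 and YTHDF2, 17 between YTHDF3 and either of them, and 14 to 22 between pairs of IGF2BP genes. No run of 50 bases from the protein-coding transcripts of one reader occurred in another reader. Runs of 50 bases were shared with other annotated genes for 4 readers. For YTHDF2 they made up 11.1% of its runs, all shared with the processed pseudogene YTHDF2P1, and for IGF2BP2 8.03%, shared with pseudogenes. For ELAVL1 6.95% matched an antisense transcript. For IGF2BP3 44% were shared, of which the larger part, 34.6% of its runs, lay in MALSU1, a mitochondrial ribosome assembly gene whose end overlaps that of IGF2BP3 on the opposite strand. Whether the authors' quantification used strand is unstated in the labels, so the IGF2BP3 value in particular is uncertain.

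The readers were expressed at very different levels, and in every library YTHDF1 was the highest and IGF2BP2 the next. On the FPKM scale, which is per length, the mean over the 4 libraries was 61.8 for YTHDF1 and 54.8 for IGF2BP2, above 95% of the listed genes, and 4.67 for FMR1 at the other end. The ranges of YTHDF1 and IGF2BP2 overlapped in shFTO and were apart in shCtrl. IGF2BP1, ELAVL1, YTHDF2 and IGF2BP3 followed with group means between 13.0 and 25.5 FPKM, and YTHDC1 came after them at 11.5 FPKM in both groups. In shFTO the ranges of IGF2BP1, ELAVL1, IGF2BP3 and YTHDF2 each overlapped the next one in the order, and that of YTHDF2 also overlapped that of YTHDC1. In shCtrl the range of YTHDF2 (5.52 to 27.2 FPKM) overlapped those of IGF2BP1, ELAVL1, IGF2BP3, YTHDC1, YTHDF3 and YTHDC2. There IGF2BP1 lay apart from ELAVL1, and IGF2BP3 from YTHDC1. YTHDF3, YTHDC2 and FMR1 had the lowest group means, and neighbours among these 3 overlapped in both groups. The shCtrl range of YTHDF3 also overlapped that of YTHDC1. In shCtrl replicate 1 YTHDF2 (5.52 FPKM) lay below YTHDC2 (6.24 FPKM) and YTHDF3 (12.0 FPKM). The 3 IGF2BP genes were thus all present at 12.6 FPKM or more in each library.

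**Figure D1:**
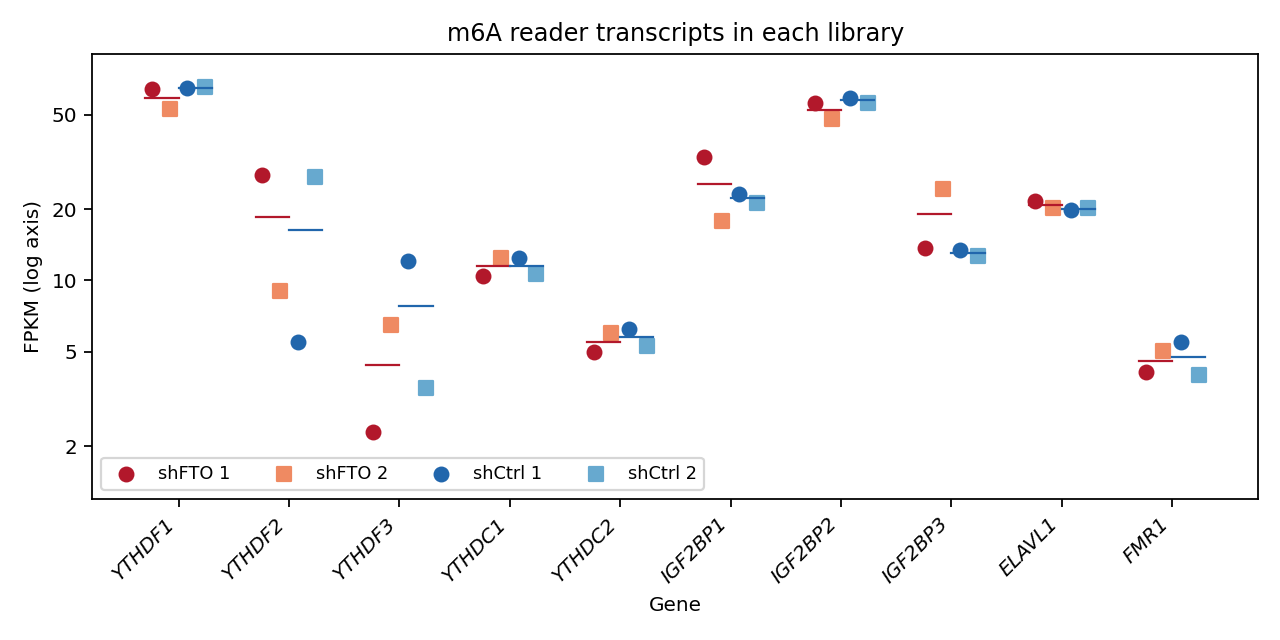
FPKM of the 10 readers in each of the 4 libraries (log axis), with a line at each group mean (red for shFTO, blue for shCtrl). YTHDF1 and IGF2BP2 lie near the top in every library, and YTHDF2 and YTHDF3 are spread widely within both groups.

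None of the 10 readers passed the test between shFTO and shCtrl. Limma was fitted on log2(FPKM + 1) over the 10873 genes that reached 1 FPKM in 2 or more libraries, with Benjamini-Hochberg adjustment over all of them, and 3 genes (0.0276%) passed an adjusted p of 0.05. At an unadjusted limma p under 0.05 the readers numbered 0 of 10, against 10.9% of all genes tested. Of the 10, 4 lay above shCtrl and 6 below, and their median difference in log2(FPKM + 1) was -0.02, where 53.8% of all genes tested lay above and their median was 0.02. The groups did not overlap for 2 of the 10 readers, YTHDF1 (shFTO lower) and IGF2BP3 (shFTO higher), against 42.6% of all genes tested. In the authors' deposited table the smallest p among the readers was 0.347, for IGF2BP2, with q = 0.781.

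**Figure D2:**
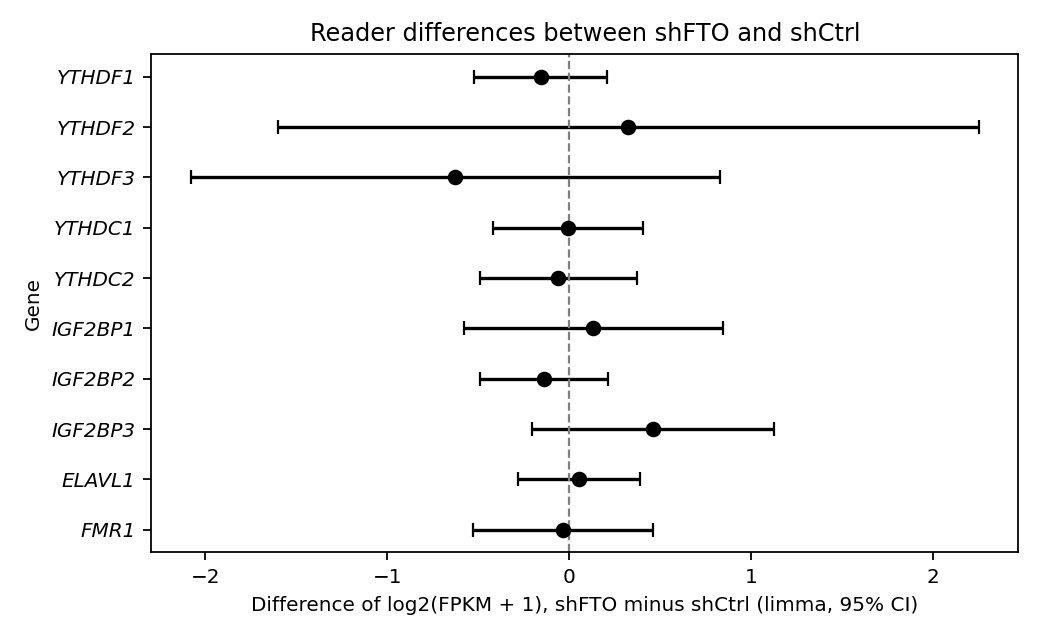
Difference of log2(FPKM + 1) between shFTO and shCtrl for each reader, with the 95% confidence interval of the limma fit (2 libraries per group). All 10 intervals contain 0, and those of YTHDF2 (-1.60 to 2.25) and YTHDF3 (-2.08 to 0.83) are the widest.

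Among the cytoplasmic YTH readers, YTHDF1, known for promoting translation of marked transcripts, was the most even in the control cells. YTHDF1 (chromosome 20, 61826781 to 61847586, minus strand, hg19) measured 64.1 and 52.9 FPKM under shFTO, compared with 64.8 and 65.3 FPKM under shCtrl. Both shFTO values lay below both shCtrl values, one of them by less than 1 FPKM. The means were 58.5 ± 7.87 and 65.0 ± 0.314 FPKM (SD, n = 2 each). In log2(FPKM + 1), the scale of all differences that follow, shFTO minus shCtrl gave -0.16 (SE 0.15, 95% confidence interval -0.52 to 0.21, adjusted p = 0.736 by limma). It was -0.02 without shFTO replicate 2 and -0.29 without the other shFTO library.

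YTHDF2, the reader most closely tied to decay, differed more between libraries of one group than between the groups. YTHDF2 (chromosome 1, 29063133 to 29096287, plus strand) measured 27.8 and 9.02 FPKM under shFTO, compared with 5.52 and 27.2 FPKM under shCtrl. It was high in shFTO replicate 1 and shCtrl replicate 2 and low in the other library of each group, so that the groups overlapped over most of their ranges. The ratio of the higher to the lower library was 3.09 within shFTO and 4.94 within shCtrl. The means were 18.4 ± 13.3 and 16.4 ± 15.4 FPKM (SD, n = 2 each), with a difference of 0.33 (SE 0.78, 95% confidence interval -1.60 to 2.25, limma adjusted p = 0.915). Leaving out 1 library moved it from -0.73 without shCtrl replicate 1 to 1.38 without shCtrl replicate 2, so its direction was not determined.

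YTHDF3, which shares targets with the other YTHDF proteins, showed the opposite order of libraries. YTHDF3 (chromosome 8, 64081112 to 64125344, plus strand) measured 2.31 and 6.47 FPKM under shFTO, compared with 12.0 and 3.50 FPKM under shCtrl. The libraries high for YTHDF2 were the low ones for YTHDF3, and again the groups overlapped. The means were 4.39 ± 2.94 and 7.77 ± 6.04 FPKM (SD, n = 2 each), and the difference was -0.63 (SE 0.59, 95% confidence interval -2.08 to 0.83, limma adjusted p = 0.735). Without shCtrl replicate 1 it was 0.14, and without shCtrl replicate 2 it was -1.39.

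Such spreads were rare in the table. The gap between the 2 libraries of a group, in log2(FPKM + 1), had a median of 0.21 in shFTO and 0.15 in shCtrl over all genes tested. For YTHDF2 it was 1.53 and 2.12, larger than in 99.1% and 99.9% of the genes tested, and for YTHDF3 it was 1.18 and 1.53, larger than in 98.0% and 99.7%. A gap of at least 1 in both groups was found for 49 genes (0.451% of those tested), and YTHDF2 and YTHDF3 were among them. Of these 49, 15 were ordered as YTHDF2, 18 as YTHDF3 and 16 had the same replicate number higher in both groups. Only 6 genes, YTHDF2 included, had gaps at least as large as those of YTHDF2 in both groups. The cause of the spread was not tested.

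**Figure D3:**
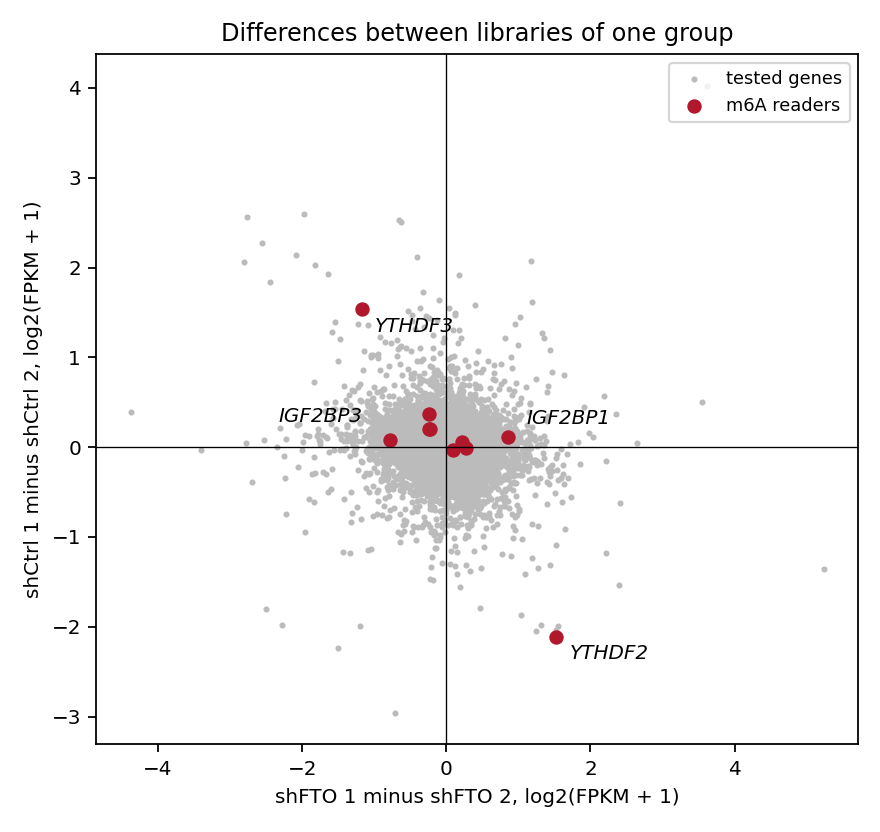
Difference between replicate 1 and replicate 2 within shFTO (horizontal) and within shCtrl (vertical), in log2(FPKM + 1), for the 10873 genes tested (grey) and the 10 readers (red). YTHDF2 and YTHDF3 lie far from the centre in opposite corners, whereas IGF2BP1 and IGF2BP3 lie apart along the shFTO axis.

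The order of the libraries was then read for all 10 readers. YTHDF3, YTHDC1, YTHDC2, FMR1 and IGF2BP3 were lower in shFTO replicate 1 and shCtrl replicate 2 than in the other library of each group, and YTHDF1, YTHDF2 and ELAVL1 were higher there. IGF2BP1 and IGF2BP2 were higher in replicate 1 of both groups. Opposite orders in the groups were thus found for 8 of the 10, among them YTHDF2 and YTHDF3, which prompted the count, and for 59.8% of all genes tested. The readers share these 4 libraries, so nothing particular to them is read from this count.

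Expressed as shares, YTHDF1 made up 68.0% and 77.4% of the summed YTHDF FPKM under shFTO, compared with 78.7% and 68.0% under shCtrl. The share of YTHDF2 was 29.6% and 13.2% in shFTO and 6.7% and 28.4% in shCtrl. That of YTHDF3 was 2.45% and 9.45% in shFTO and 14.6% and 3.65% in shCtrl. Each of these shares overlapped between the groups, and scaling of a library does not affect them. The summed YTHDF FPKM was 94.2 and 68.4 in shFTO and 82.4 and 96.0 in shCtrl.

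**Figure D4:**
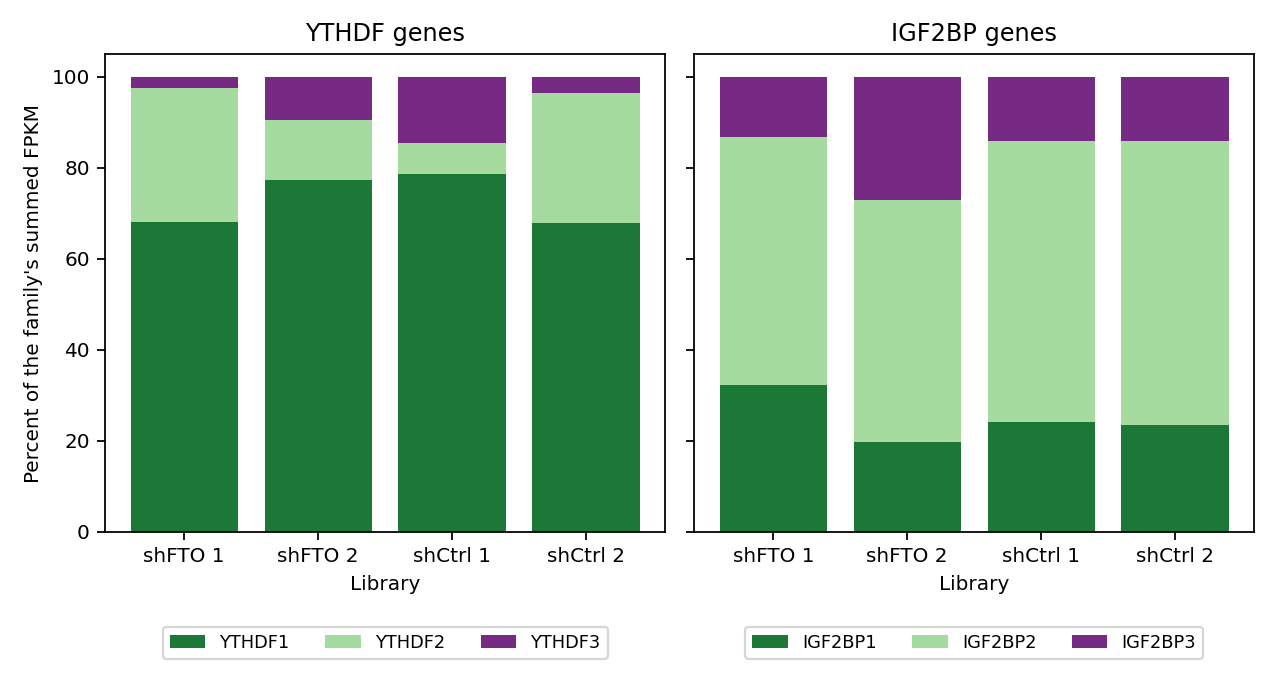
Percent of the summed FPKM of the YTHDF genes (left) and of the IGF2BP genes (right) taken by each paralog in each library. The YTHDF2 share is above the YTHDF3 share in all libraries except shCtrl replicate 1 (6.70% against 14.6%), and the IGF2BP2 share is 53.3% to 54.5% in shFTO against 61.6% to 62.4% in shCtrl.

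The YTHDC readers were close to level. YTHDC1, the nuclear reader, (chromosome 4, 69176105 to 69215807, minus strand) measured 10.5 and 12.5 FPKM under shFTO, compared with 12.4 and 10.7 FPKM under shCtrl. The means were 11.5 ± 1.43 and 11.5 ± 1.24 FPKM (SD, n = 2 each) and the difference was -0.01 (SE 0.17, 95% confidence interval -0.42 to 0.41, limma adjusted p = 0.992). YTHDC2, a helicase known for its requirement in meiosis, (chromosome 5, 112849380 to 112930982, plus strand) measured 4.98 and 6.01 FPKM under shFTO, compared with 6.24 and 5.28 FPKM under shCtrl. Its groups also overlapped, with a difference of -0.06 (SE 0.17, 95% confidence interval -0.49 to 0.37, limma adjusted p = 0.934).

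IGF2BP1 and IGF2BP3 were even in the control cells and uneven in the knockdown cells, each in a different library. IGF2BP1 (chromosome 17, 47074774 to 47133012, plus strand) measured 33.2 and 17.8 FPKM under shFTO, compared with 23.1 and 21.3 FPKM under shCtrl. The shCtrl values lay between the 2 shFTO values. The difference was 0.13 (SE 0.29, 95% confidence interval -0.58 to 0.84, limma adjusted p = 0.906), and leaving out shFTO replicate 1 gave -0.30, leaving out shFTO replicate 2 gave 0.56.

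IGF2BP3, the paralog most often described as oncofetal, had the smallest p of the readers. IGF2BP3 (chromosome 7, 23349828 to 23510086, minus strand) measured 13.7 and 24.3 FPKM under shFTO, compared with 13.4 and 12.6 FPKM under shCtrl. Both shFTO values lay above both shCtrl values, but shFTO replicate 1 did so by less than 1 FPKM. The means were 19.0 ± 7.52 and 13.0 ± 0.555 FPKM (SD, n = 2 each), a ratio of 1.46. The difference was 0.46 (SE 0.27, 95% confidence interval -0.20 to 1.13, limma adjusted p = 0.583). It passed in the fit without shFTO replicate 1, at 0.85 (limma adjusted p = 0.0386), where the remaining shFTO library is taken to have the spread of the 2 shCtrl libraries and 429 genes passed in all. Over all 12 alternatives its limma adjusted p ran from 0.0386 to 0.979. MALSU1, its neighbour on the opposite strand, measured 7.43 and 8.31 FPKM under shFTO, compared with 7.30 and 8.25 FPKM under shCtrl. Whether the shared runs affect the IGF2BP3 values was not tested.

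The genes whose 4 values were nearest in pattern to IGF2BP3, by distance of centred log2(FPKM + 1) over the 4 libraries, were SRD5A1, a steroid reductase gene, KIAA1217 and TOLLIP, an adaptor of innate signalling. SRD5A1, the nearest of them, measured 6.38 and 11.6 FPKM under shFTO, compared with 6.14 and 5.70 FPKM under shCtrl. With 4 libraries, 71 genes tested lay within a distance of 0.2 of IGF2BP3.

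IGF2BP2, the most abundant of the family, (chromosome 3, 185361527 to 185542844, minus strand) measured 56.2 and 48.0 FPKM under shFTO, compared with 58.6 and 56.2 FPKM under shCtrl. The groups met at 56.2 FPKM. The difference was -0.14 (SE 0.14, 95% confidence interval -0.49 to 0.21, limma adjusted p = 0.757). As a share of summed IGF2BP FPKM it was 54.5% and 53.3% in shFTO and 61.6% and 62.4% in shCtrl, 8.11 percentage points apart in mean. The shares did not overlap, and the exact two-sided permutation p of 0.333 is the smallest that 2 against 2 libraries can give. The remainder was taken up by IGF2BP1 in shFTO replicate 1 (32.2%, against 23.6% to 24.2% in shCtrl) and by IGF2BP3 in shFTO replicate 2 (27.0%, against 14.0% to 14.1% in shCtrl). The summed IGF2BP FPKM was 103 and 90.2 in shFTO and 95.1 and 90.1 in shCtrl.

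ELAVL1 varied little in either group. ELAVL1 (chromosome 19, 8023463 to 8070543, minus strand) measured 21.6 and 20.2 FPKM under shFTO, compared with 19.8 and 20.3 FPKM under shCtrl. The groups overlapped and the higher library exceeded the lower by a ratio of 1.07 in shFTO and 1.02 in shCtrl. The difference was 0.06 (SE 0.14, 95% confidence interval -0.28 to 0.39, adjusted p = 0.915 by limma), the narrowest interval among the 10. Its neuronal paralogs ELAVL2, ELAVL3 and ELAVL4 were not among the listed genes. FMR1 (chromosome X, 146993469 to 147032645, plus strand) measured 4.13 and 5.06 FPKM under shFTO, compared with 5.49 and 4.01 FPKM under shCtrl, with overlapping groups and a difference of -0.03 (SE 0.20, 95% confidence interval -0.53 to 0.46, adjusted p = 0.97 by limma).

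The proteins that work with the readers were then described from lists, in which a called gene means one past the same adjusted threshold, and limma called 0 genes of any list. At an unadjusted limma p under 0.05 there were 2 of 16 genes in the CCR4-NOT list, 2 of 18 in the decay list, 4 of 14 IGF2BP targets, 4 of 15 ELAVL1 targets and 0 in the others, against 10.9% of all genes tested. The numbers above shCtrl that follow are to be read against 53.8% of all genes tested, with a median of 0.02. Of 10 other proteins reported as m6A readers, 7 lay above shCtrl and the median was 0.03. G3BP1 and FXR1 were 0.18 and 0.14 above, and EIF3A and SND1 were -0.18 and -0.16 from shCtrl. With median-ratio scaling the number above was 2 and the median -0.02, the same as the median of all genes tested under that scaling (-0.02). Of 12 partners of FMRP, 7 lay above (median 0.06), with AGO2 at 0.50, G3BP2 at -0.32 and CAPRIN1 at -0.23. FXR1, FXR2 and G3BP1 lay above and stand in both this list and that of other reported readers, so these lists are not independent of each other.

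Decay machinery, into which YTHDF2 feeds its targets, was mixed. Of 16 tested subunits and adaptors of CCR4-NOT, 9 lay above shCtrl and 7 below (median 0.02). BTG1, an adaptor of the deadenylase, measured 11.6 and 13.2 FPKM under shFTO, compared with 8.69 and 9.57 FPKM under shCtrl, and the subunit gene CNOT11 had 21.0 and 15.5 against 25.0 and 26.1 FPKM. These 2 had an unadjusted limma p under 0.05 and adjusted limma p of 0.447 and 0.443. TNKS1BP1 differed by 0.35 and CNOT2 by -0.35, the latter through shCtrl replicate 1 at 4.05 FPKM against 1.98 FPKM in replicate 2. Of 18 decapping and 5′ decay genes, 8 lay above (median -0.04), but each of the 4 fits without 1 library gave a median above 0 (0.015 to 0.0766) and 9 to 11 genes above, so the list had no settled direction. For CCR4-NOT the same fits gave medians from -0.06 to 0.15. DCP1A, a cofactor of the decapping enzyme, had 10.8 and 13.8 against 9.02 and 7.88 FPKM, and LSM5, of the LSM ring, had 15.0 and 12.7 against 18.5 and 20.3 FPKM. They too failed the correction (limma adjusted p = 0.426 and 0.398), while EDC4 and LSM3 differed by 0.32 and -0.20.

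Of 11 splicing and export partners of YTHDC1, 3 lay above and 8 below (median -0.07, or -0.11 to -0.01 when 1 library was left out). The export adaptor ALYREF measured 136 and 120 FPKM under shFTO, compared with 140 and 172 FPKM under shCtrl, SRSF7 differed by -0.22, and NXT1 and NXF1 differed by 0.12 and 0.08. Cofactors of IGF2BP and ELAVL1 in mRNA stability were represented by 11 rows, since MATR3 has 2, of which 4 lay above (median -0.07). With 1 library left out the number above ran from 2 to 6 and the median from -0.09 to 0.07, so the direction was not determined. STAU1 and SYNCRIP differed by 0.23 and 0.10, and DHX9 and HNRNPU by -0.10 and -0.08.

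Known targets of the IGF2BP proteins lay mostly above shCtrl: 11 of 14 did so, against 53.8% of all genes tested, at a median of 0.20, and 8 had groups that did not overlap, all with shFTO higher, where 24.6% of all genes tested were so placed. The number above was 9 with median-ratio scaling and 12 with quantile normalization. The median of all genes tested was -0.02 and -0.007 under these scalings, so the 53.8% of the main fit does not apply to them. This list was itself written with earlier results of these data known, so the counts describe its genes and nothing further is read from them. HMGA2, a chromatin protein expressed in embryos and many tumours, measured 15.0 and 11.9 FPKM under shFTO, compared with 6.26 and 5.77 FPKM under shCtrl. Its difference was 1.04 (SE 0.17, limma adjusted p = 0.159), 0.88 without shFTO replicate 1 and 1.19 without shFTO replicate 2. A fit with 1 shFTO library takes its spread from the shCtrl libraries alone, so only the HMGA2 difference is given for it. The adjusted p of HMGA2 stayed above the threshold in every alternative that kept both shFTO libraries. MARCKSL1 had 61.6 and 59.0 against 36.5 and 45.6 FPKM (adjusted p = 0.329 by limma). The other members with an unadjusted limma p under 0.05, chosen after their values were seen, were MYC, at 3.85 and 4.51 against 2.84 and 0.612 FPKM, and the let-7 inhibitor LIN28B, at 5.90 and 10.5 against 4.82 and 4.28 FPKM. LIN28B differed by 0.68, by 1.05 without shFTO replicate 1 and by 0.31 without shFTO replicate 2. TK1 and CDK6 differed by -0.05 and -0.03.

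Known AU-rich targets of ELAVL1 lay above shCtrl in 12 of 15 cases, against 53.8% of all genes tested, with a median of 0.10, and in 11 with either of these scalings. Omitting shFTO replicate 2 gave a median of 0.01, and omitting shFTO replicate 1 gave 0.28. PTGS2, an enzyme of prostaglandin synthesis, and VEGFA, an angiogenic factor, differed by 0.89 and 0.55 (limma adjusted p = 0.287 and 0.345). When shFTO replicate 2 stood alone for its group, PTGS2 differed by 1.17 and VEGFA by 0.44. When replicate 1 stood alone, they differed by 0.60 and 0.65. A single shFTO library has no spread of its own, so only the differences are given for these fits. FOS and MYC also had an unadjusted limma p under 0.05 and were named after their values were seen, with FOS at 1.40 and 1.51 against 0.303 and 0.847 FPKM. In the opposite direction CCNB1 and SIRT1 differed by -0.34 and -0.39. MYC stands in both target lists, so they are not independent of each other. The ELAVL1 list too was written with earlier results of these data known, so its counts are a description only.

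**Figure D5:**
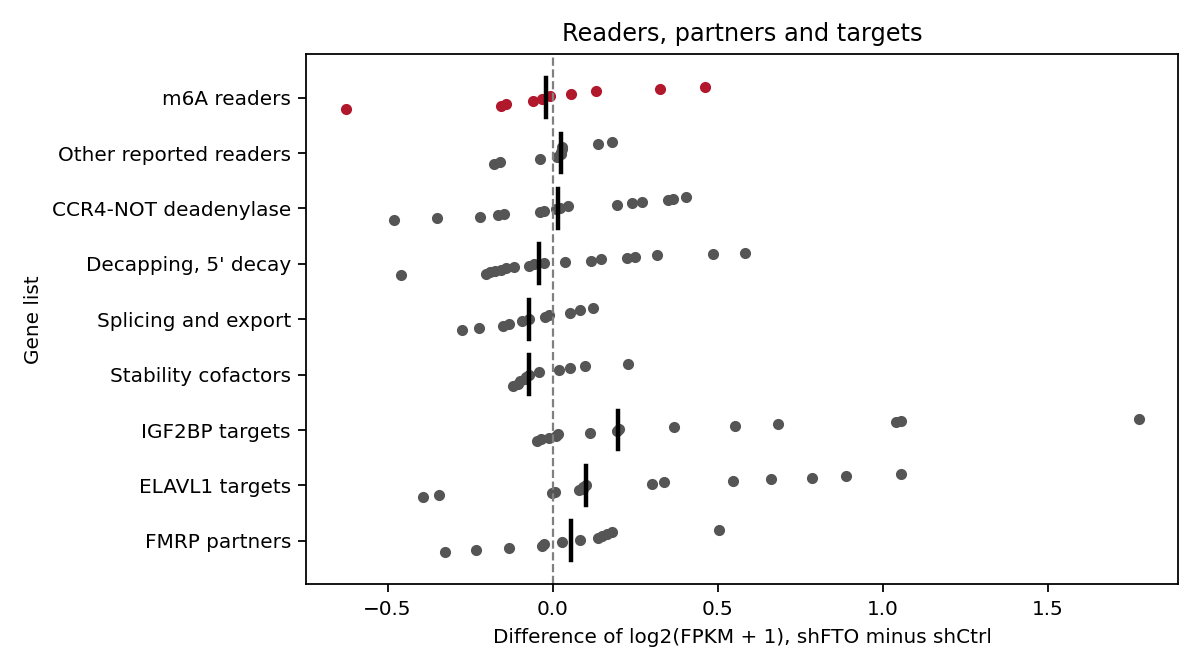
Difference of log2(FPKM + 1), shFTO minus shCtrl, for each tested gene of the readers (red) and of 8 lists of other readers, partners and targets (grey), with the median of each list as a bar. Medians run from -0.07 to 0.06 except in the lists of IGF2BP targets (0.20) and ELAVL1 targets (0.10).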

How the data were processed

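RNA was sequenced from 4 libraries of 143B cells, 2 labelled shFTO and 2 labelled shCtrl, grouped by their titles. Per the labels' protocols, mRNA was enriched on oligo(dT) beads and the second strand was synthesised with dUTP. Cutadapt, HISAT2 2.0.5, StringTie, STAR 2.5.2b and hg19 are named without roles, per the submitters' processing notes. The authors deposited FPKM per library for 11972 genes, per the file headers. The authors' deposited group columns and log2 fold change were recomputed as means of log2(FPKM + 1) and their difference, and the deposited fold is 2 to that power. The deposited p-value and q-value were copied for the readers. Depth is unknown, so no counting interval was given.

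Limma 3.58.1 in R 4.3.3 was fitted on log2(FPKM + 1) with a mean-variance trend. The code was also run on simulated data with equal, independent noise for every gene. Spreads in these libraries are uneven, so that run does not show how the test performs on them. A pseudocount of 1 shrinks differences of genes near 1 FPKM, including FTO, which did not reach the filter. The members, lists and tests were chosen with earlier results of these data known. Named genes are the readers, FTO and, from each list, any gene past the threshold and the 2 smallest p-values in each direction. The 3 genes nearest in pattern were taken for the reader with the smallest p. Gene positions are the table's (hg19). Transcripts and coding sequences came from GENCODE 29 (GRCh38), the transcript with the longest coding part being used, aligned with MAFFT 7.526, with positions counted along the coding sequence. Among the list genes, RQCD1 was not found under that symbol, and CNOT9 was. Alternatives covered the pseudocount, the filter, scaling, the variance trend, a replicate block and leaving out each library.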

Additional observations from a re-analysis of the deposited data

How the results depend on the processing

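Called readers were 0 under every alternative except without shFTO replicate 1, where IGF2BP3 passed, so the count ran from 0 to 1 when 1 library was left out. With 1 library left out, differences ran from -0.29 to -0.02 for YTHDF1, -0.73 to 1.38 for YTHDF2, -1.39 to 0.14 for YTHDF3, -0.12 to 0.11 for YTHDC1, -0.17 to 0.0555 for YTHDC2, -0.30 to 0.56 for IGF2BP1, -0.25 to -0.03 for IGF2BP2, 0.069 to 0.85 for IGF2BP3, 0.01 to 0.10 for ELAVL1 and -0.22 to 0.15 for FMR1. The number of readers above shCtrl ran from 4 to 7. Directions of YTHDF1, IGF2BP2, IGF2BP3 and ELAVL1 held in all 12 alternatives. Without shFTO replicate 1 the difference reversed for YTHDF2 (-0.44), YTHDC1 (0.11), YTHDC2 (0.0555), IGF2BP1 (-0.30) and FMR1 (0.09), and without shCtrl replicate 1 for YTHDF2 (-0.73), YTHDF3 (0.14), YTHDC1 (0.09), YTHDC2 (0.04) and FMR1 (0.15). Among the other named genes, MALSU1 reversed with quantile normalization (-0.0247), median-ratio scaling (-0.0275) and in 2 of the fits without a library (range -0.0629 to 0.0933), CDK6 without shFTO replicate 2 or shCtrl replicate 1 (range -0.41 to 0.34), CNOT2 without shCtrl replicate 1 (0.0289) and TK1 without shCtrl replicate 2 (0.21). Over all genes, 3 passed in the main test (1 higher, 2 lower). With no filter, quantile normalization, median-ratio scaling or no variance trend it was 1 (0 higher, 1 lower), and a pseudocount of 0.1 gave 0. Leaving out 1 library gave 0 to 429 (0 to 200 higher, 0 to 229 lower). The cause was not tested. With the replicate block 15 genes passed (7 higher, 8 lower), none of them a reader, but the labels do not say that equal numbers mark paired cultures, and deviations of same-numbered libraries correlated at -0.19 over genes. A crossed replicate block, chosen after seeing the data, called 0 genes, 0 higher and 0 lower. With 2 libraries per group and unknown depth, each interval given holds the differences that its fit does not exclude. The intervals are not adjusted for the number of genes tested, so they are not a limit of detection. A gene that was not called was not thereby shown to have equal levels.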
